A study of Mus musculus with 2 samples.

Results

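Cells carrying Zscan4 transcripts were rare in both libraries. Members were chosen by their own Zscan4 counts: at least 3 unique molecular identifiers (UMIs, counted RNA molecules) summed over Zscan4c, Zscan4d and Zscan4f. The rule found 74 members among 16610 barcodes, after those with fewer than 1000 genes or with more than 10% mitochondrially encoded UMIs were set aside. The wild type library held 46 members of 9227 barcodes, and the PHD2-KO library held 28 of 7383. The study profiled AB2.2 mouse embryonic stem cells by 10x Genomics droplet sequencing on day 4 of mesendoderm differentiation, a state from which both mesoderm and endoderm arise. One group was wild type, and in the other PHD2 was knocked out. PHD2, encoded by Egln1, is the prolyl hydroxylase that marks HIF-alpha subunits for degradation when oxygen is present. Each genotype was 1 library. The labels do not say whether the knockout was 1 clone or which part of Egln1 was altered.

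Zscan4 genes encode SCAN-domain zinc finger proteins that are transcribed in the mouse embryo when its own genome is first switched on, at the 2-cell stage. In cultured embryonic stem cells they come on in short bursts in a small part of the cells, and are known for roles in telomere upkeep and genome stability. Such 2-cell-like cells are known to transcribe other 2-cell genes and MERVL retroviral elements at the same time, downstream of the transcription factor Dux and its activators Dppa2 and Dppa4. Retroviral elements were not measured by these gene counts.

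The 3 genes of the rule lie with Zscan4b in a cluster on chromosome 7 (mm10, 10900740 to 11402318), within which Zscan4c spans 11005745 to 11010547 on the plus strand, Zscan4d 11161374 to 11166159 on the minus strand, and Zscan4f 11397915 to 11402318 on the plus strand. The stretches of 100 bases before the RefSeq starts (GRCm38.p6) are shown because they make the likeness of the copies visible. They are chr7:10905051-10905150 on the minus strand for Zscan4b, chr7:11005645-11005744 on the plus strand for Zscan4c, chr7:11166149-11166248 on the minus strand for Zscan4d, and chr7:11397815-11397914 on the plus strand for Zscan4f. Capitals mark the letters TATAAAA.
Zscan4b: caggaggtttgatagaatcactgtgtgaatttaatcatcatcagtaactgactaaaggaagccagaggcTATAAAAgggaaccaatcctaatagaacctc
Zscan4c: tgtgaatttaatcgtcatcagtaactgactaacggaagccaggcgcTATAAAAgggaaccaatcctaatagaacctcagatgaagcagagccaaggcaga
Zscan4d: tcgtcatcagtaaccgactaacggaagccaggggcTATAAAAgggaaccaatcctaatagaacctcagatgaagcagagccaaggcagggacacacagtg
Zscan4f: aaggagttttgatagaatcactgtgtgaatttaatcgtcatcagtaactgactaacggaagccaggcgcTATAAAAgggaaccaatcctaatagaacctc

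The same stretch recurs at different distances from the annotated starts. TATAAAA began 31 bases upstream of Zscan4b and Zscan4f, 54 upstream of Zscan4c and 65 upstream of Zscan4d. Over the 300 bases around the start, Zscan4c and Zscan4f were 99.3% identical where they overlapped, and Zscan4b and Zscan4c 95.3%. Searched on both strands of the 250 bases upstream, TATAAAA was present in 5.85% of the 27025 promoters in the table. The transcripts also share sequence, to differing extents: of the 60-base words in the annotated transcripts, 94.2% of those of Zscan4f, 82.8% of those of Zscan4c and 45.2% of those of Zscan4d also occurred in another gene. The labels and file headers do not say how reads shared between copies were counted, so the 3 counts are read as a sum and single copies are uncertain.

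The share of members was 0.499% in wild type (95% exact binomial interval 0.365 to 0.664) and 0.379% in PHD2-KO (0.252 to 0.548). These intervals cover counting error only, they overlap, and with 1 library per genotype no test between genotypes was possible. Members held 793 Zscan4 UMIs in wild type, 90.2% of those in the barcodes kept, and 689 in PHD2-KO, 93.2%. As the rule chose members by these counts, the percentages are a description. The other barcodes together held 86 and 50. Zscan4 UMIs per member had a lowest value of 3, a median of 10.5 and a highest of 60 in wild type. In PHD2-KO they had a lowest value of 3, a median of 11 and a highest of 118. The ranges of the 2 genotypes overlapped.

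Just inside the threshold, 7 wild type and 5 PHD2-KO cells had exactly 3 Zscan4 UMIs. Just outside it, 6 and 3 barcodes had 2, and 74 and 44 had 1. The UMIs of 42 other 2-cell genes were then summed in the same cells. Each was below 1 CPM (UMIs per 1000000 UMIs of the same sum) in the other barcodes of both libraries, and as they were picked for this, their sums are a description. These transcripts reached a median of 4 UMIs in the 7 wild type and 3 UMIs in the 5 PHD2-KO cells at the threshold, 2 UMIs in the 3 PHD2-KO barcodes with 2 Zscan4 UMIs, and 0 in the 6 wild type barcodes with 2 and in the barcodes with 1. Of the barcodes with 1 Zscan4 UMI, 57 of 74 and 31 of 44 had none of them. The summed level at 2 and at 3 differed in opposite directions in the 2 libraries. In wild type it was 892 CPM at 2 and 418 CPM at 3, and in PHD2-KO 99.6 CPM and 498 CPM. Of the 6 wild type barcodes at 2, 4 had none of these UMIs, and the other 2 had 66 and 51. At 3, 1 of the 7 wild type members had none.

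Members were not simply the deepest barcodes. Their median was 18171.5 UMIs and 3679 genes in wild type, against 20753 UMIs and 3617 genes in the other barcodes, and 16248.5 UMIs and 3610 genes in PHD2-KO, against 21387 and 3888. Both tails were fuller among members: 5 wild type members (10.9%, against 4.86% of the others) were above 50000 UMIs, and 8 PHD2-KO members (28.6%, against 3.40%) were below 10000. The mitochondrial share had medians of 1.37% in wild type members and 1.07% in others, and of 1.72% and 1.32% in PHD2-KO. Of the members, 3 of 46 and 0 of 28 fell among the highest doublet scores, where 7.72% and 6.20% of the others fell. The libraries shared 18 barcode sequences among those kept, none of them a member. The part of depth, cell quality or doublets in the results that follow was not tested beyond the alternatives named.

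Of the markers given for these cells, Tcstv3, a 2-cell gene of chromosome 13, was present in part of the members of both libraries and Zfp352 mainly in PHD2-KO. Tcstv3 (120316878 to 120318178, plus strand) ranged from 0 to 83 UMIs per wild type member with a median of 0, and from 0 to 19 with a median of 0.5 in PHD2-KO. It was present in 15 of 46 and 14 of 28 members, against 0.109% and 0.299% of the other barcodes. Members held 215 Tcstv3 UMIs in wild type, 66.5% of them in 2 cells, and 52 in PHD2-KO, where the other barcodes held 114. Zfp352, a retrotransposon-derived zinc finger gene of chromosome 4, had 2 UMIs in 1 wild type member, whereas 7 PHD2-KO members held 55. The name 2-cell-like thus rests in wild type on Tcstv3 and on the genes described next, not on Zfp352.

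**Figure D1:**
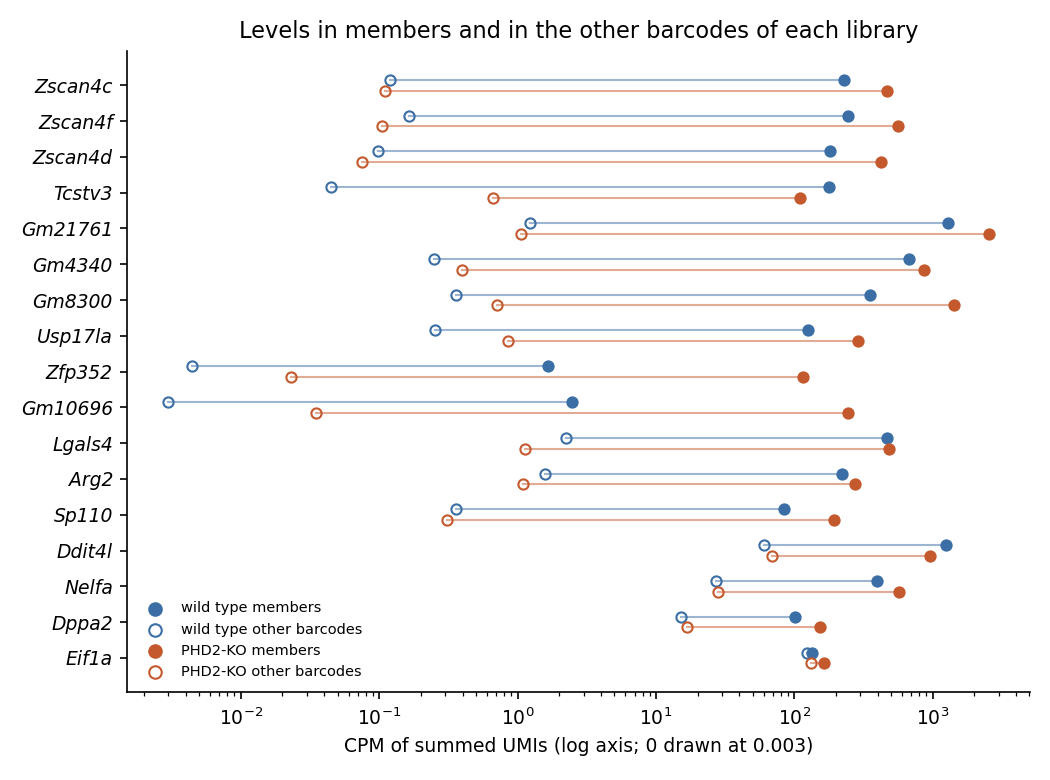
Level of 17 genes in CPM of summed UMIs (log axis) in members (filled) and in the other barcodes (open) of the wild type (blue) and PHD2-KO (orange) library. Zscan4 and most other 2-cell genes lie below about 1 CPM outside members, while Ddit4l, Nelfa, Dppa2 and Eif1a are also present in the other barcodes.

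Outside the 3 genes of the rule, members carried a broad 2-cell programme in both libraries. Of 70 further 2-cell genes listed, 67 were in the files and 34 had enough UMIs to be tested, of which 33 were higher in members and 0 lower, with a median log2 fold of 9.79. Over all 8607 genes tested the median was -0.02, and 1013 (11.8%) were higher and 691 (8.03%) lower at an adjusted p under 0.05. The test was edgeR's quasi-likelihood test on the 4 sums of UMIs (members and others in each library), with library as a term and Benjamini-Hochberg adjustment. It rests on 2 libraries of different genotype and 1 residual degree of freedom, and 1 spread was used for all genes. How alike a gene's own folds were in the 2 libraries therefore enters neither its p-value nor its standard error (SE). The SE given with a log2 fold is thus not a measure of how far the 2 libraries differ for that gene. A gene could enter the test through its UMIs in members alone, as 1049 of the 8607 did, among them 455 of the 1013 called higher. This holds for 32 of the 34 tested 2-cell genes, and 20 list genes had 0 UMIs in members, so the 33 of 34 only describes the genes measured.

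The largest folds belonged to predicted genes of a few families. Gm21761, in the Tcstv cluster of chromosome 13, had a lowest value of 0, a median of 14 and a highest of 183 UMIs in wild type members, and 0, 20.5 and 215 in PHD2-KO members. Its level was 1289.9 CPM in wild type members against 1.23 in the others, and 2539.6 against 1.07 in PHD2-KO, a log2 fold of 10.54 (SE 0.18). It was present in 80.4% and 78.6% of members, and in 1.22% and 1.31% of the other barcodes. The 8 genes called higher in this cluster, Tcstv1, Tcstv3 and AF067061 among them, summed to 1961 and 3276 CPM in members, against 1.65 and 2.25 in the others.

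A second group was 9 genes of chromosome 12 (87514316 to 88324026), whose transcripts, except that of Gm21319, share 60-base words with Eif1a. The group summed to 1332 CPM in wild type members and 4976 in PHD2-KO members, against 1.11 and 1.78 in the others. Gm8300 of this group had a median of 4 UMIs (0 to 69) per wild type member and 12 (0 to 164) per PHD2-KO member, with a log2 fold of 10.41 (SE 0.21). Eif1a itself, the translation initiation factor, was the 1 tested list gene that was not called: 134 CPM in wild type members against 123, and 165 against 132 in PHD2-KO (log2 fold 0.13, SE 0.18, edgeR adjusted p = 0.67). The copies differ in how far their sequence can be told apart: 100% of the 60-base words of Gm8332 and 93.8% of those of Gm4027 occurred in another gene, but 21.2% of those of Gm8300, 12.5% of those of Gm5039 and 10.9% of those of Gm21319. The 4 Usp17l genes, deubiquitinases of chromosome 7, reached 205 and 540 CPM in members, against 0.405 and 1.16.

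Several of the genes with large folds lie outside these families, and their copy number was not examined. Arg2, a mitochondrial arginase, was at 220 and 272 CPM in members against 1.58 and 1.10 in the others (log2 fold 7.43, SE 0.23). Lgals4, a galectin chosen after its values were seen, was at 464 and 481 CPM against 2.23 and 1.14 (log2 fold 8.10, SE 0.21, higher in both libraries). Like the other genes of this paragraph, it entered the test through its UMIs in members alone, so its values are a description. Sp110, a nuclear body protein, was at 84.2 and 192 CPM against 0.356 and 0.307. Lmx1a, a LIM homeobox gene, was at 54.5 and 63.3 CPM against 0.0713 and 0.0290. Gm4340, a predicted gene of chromosome 10, was at 673 and 871 CPM against 0.249 and 0.400.

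Ddit4l, an inhibitor of mTOR signalling, was the most widely present of them among members. Its UMIs per member had a lowest value of 0, a median of 21 and a highest of 133 in wild type, and 0, 8.5 and 78 in PHD2-KO, with a UMI in 45 of 46 and 26 of 28. Its level outside members, 60.05 and 69.4 CPM, was well above those of Arg2, Lgals4, Sp110, Lmx1a and Gm4340 there. In members it was at 1256 and 958 CPM (log2 fold 4.02, SE 0.15).

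The calls above were not carried by single cells for most genes. Of the 1013 genes called higher, 610 were more than 2-fold higher in both libraries and 99 more than 100-fold. With each library's highest member taken out gene by gene, 958 (94.6%) had a fold above 1 in both libraries and 471 above 2. In 85 genes 1 member held over 50% of the UMIs of its library's members. No gene was called in the opposite direction under any alternative run, although the number called lower depends on scaling: without TMM factors 970 were higher and 315 lower, and without library as a term 383 and 6.

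**Figure D2:**
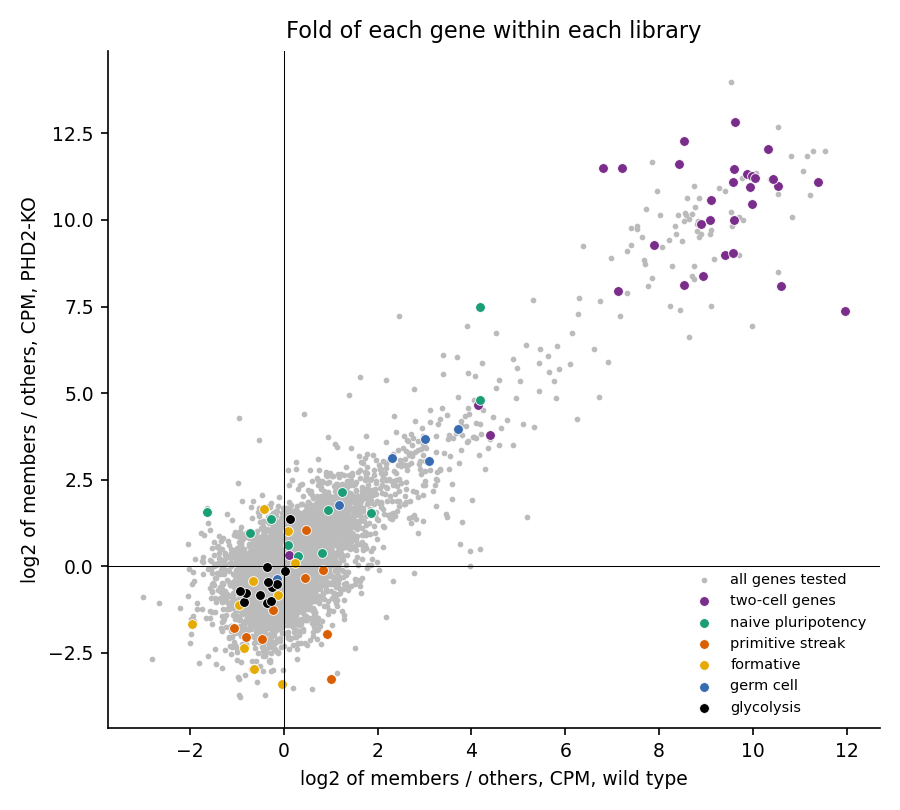
Fold of members over other barcodes for each tested gene with UMIs in all 4 sums, as the log2 of the CPM ratio in wild type (x axis) and in PHD2-KO (y axis), with 6 lists coloured. The 2-cell genes other than Eif1a sit in the upper right in both libraries, germ cell genes lie mostly between, and primitive streak genes reach lower values in PHD2-KO.

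Among genes known to bring on the 2-cell state, 6 of 10 found could be tested (median log2 fold 0.41). Of these 6, 3 (50%) were higher and 1 (16.7%) lower, beside 11.8% and 8.03% of all genes. Nelfa, a subunit of the negative elongation factor, was at 395 and 570 CPM in members against 27.05 and 27.95 in the others (log2 fold 4.03, SE 0.17). Dppa2, a chromatin activator of Dux, was at 101 and 154 CPM against 15.2 and 16.9 (log2 fold 2.87, SE 0.21). Its partner Dppa4 was at 61.9 and 48.5 CPM against 45.5 and 34.4, which did not pass (log2 fold 0.38, SE 0.23, edgeR adjusted p = 0.254).

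Smarca5, a chromatin remodeller, rose by less (log2 fold 0.44, SE 0.15, edgeR adjusted p = 0.0188, higher in both libraries). Trp53, the p53 gene, fell by 0.70 on the log2 scale (SE 0.18, edgeR adjusted p = 0.00166, lower in both libraries). Duxf3, a Dux copy, gave 5 UMIs in 5 wild type members and 4 UMIs in 4 PHD2-KO members, too few to test. Of 28 genes known to repress MERVL or the 2-cell state, 2 were higher and 2 lower: the Polycomb ubiquitin ligase Rnf2 (log2 fold 1.23) and Rif1 (0.51), and the chromatin assembly subunit Chaf1b (-0.96) and Sumo2 (-0.84). At 7.14% in each direction, this is below the shares over all genes, 11.8% and 8.03%.

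Members differed widely among themselves in how much of the programme they carried. The 42 other 2-cell genes summed to between 0 and 322 UMIs per wild type member, with a median of 43.5, and between 1 and 472 with a median of 67 in PHD2-KO. At least 3 such UMIs were present in 41 of 46 and 26 of 28 members, and at least 10 in 33 and 21. Their summed level was higher in classes with more Zscan4 UMIs: in wild type 659 CPM in members with 3 to 9 Zscan4 UMIs, 3471 CPM with 10 to 29 and 5981 CPM with 30 or more. In PHD2-KO the levels were 1846, 4656 and 15582 CPM. Across cells, Zscan4 CPM and the CPM of these genes had a Spearman correlation of 0.73 over 46 wild type members and 0.82 over 28 PHD2-KO members. Cells share their library and both measures share a cell's total, and Zscan4 CPM itself had a rank correlation of -0.41 and -0.64 with UMIs per cell.

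**Figure D3:**
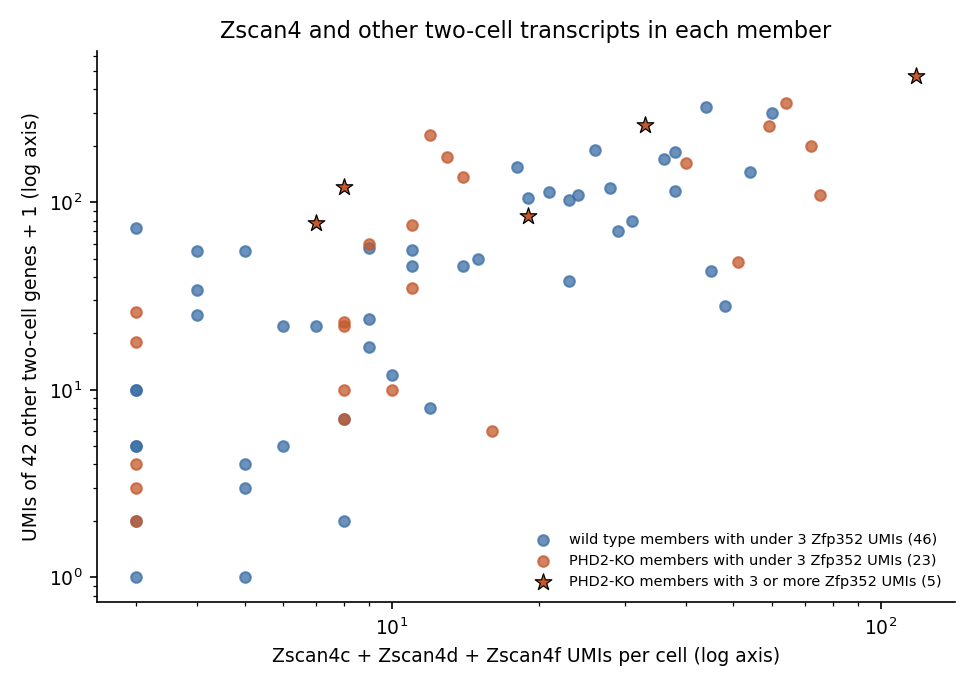
Each point is 1 member: Zscan4c, Zscan4d and Zscan4f UMIs (x axis) against UMIs of 42 other 2-cell genes plus 1 (y axis), both on log axes, wild type in blue and PHD2-KO in orange. Cells with more Zscan4 UMIs mostly have more of the other transcripts, and stars mark the 5 PHD2-KO members with 3 or more Zfp352 UMIs.

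Zfp352 picked out a small subset. Exactly 5 PHD2-KO members had 3 or more Zfp352 UMIs, with 15, 19, 4, 11 and 4 UMIs in cells of 9997, 6211, 2972, 2454 and 2922 UMIs in all. No wild type member and no other barcode of either library reached 3. These cells, chosen after their values were seen, held 53 of the 55 Zfp352 UMIs and 112 of the 116 UMIs of Gm10696, a predicted gene of which wild type members had 3. The 42 other 2-cell genes include both. Without them, Zscan4 and the remaining 2-cell genes made up 2.19% to 5.74% of these cells' UMIs, with a median of 3.53%. The other PHD2-KO members had a median of 0.237%. The highest of them, with 0 Zfp352 UMIs, was at 2.30%, and the highest wild type member at 2.19%, so the low end of the range was shared.

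The subset was shallow, with a median of 2972 UMIs against 18388 in the other PHD2-KO members, and its highest mitochondrial share was 3.45%. In its 24556 summed UMIs, Gm21761 was at 12787 CPM against 1980 in the other PHD2-KO members, Gm8300 at 10059 against 943, and Gm5117 at 3258 against 8.90. Fundc1, a mitophagy receptor, was at 4642 against 681 CPM, and the ribosomal protein gene Rplp0 at 16330 against 7744. Lower were the nuclear RNA Malat1, at 1018 against 3054 CPM, and the metallothionein gene Mt1, at 814 against 2549. The cells all come from 1 library, so these values have no replicate.

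**Figure D4:**
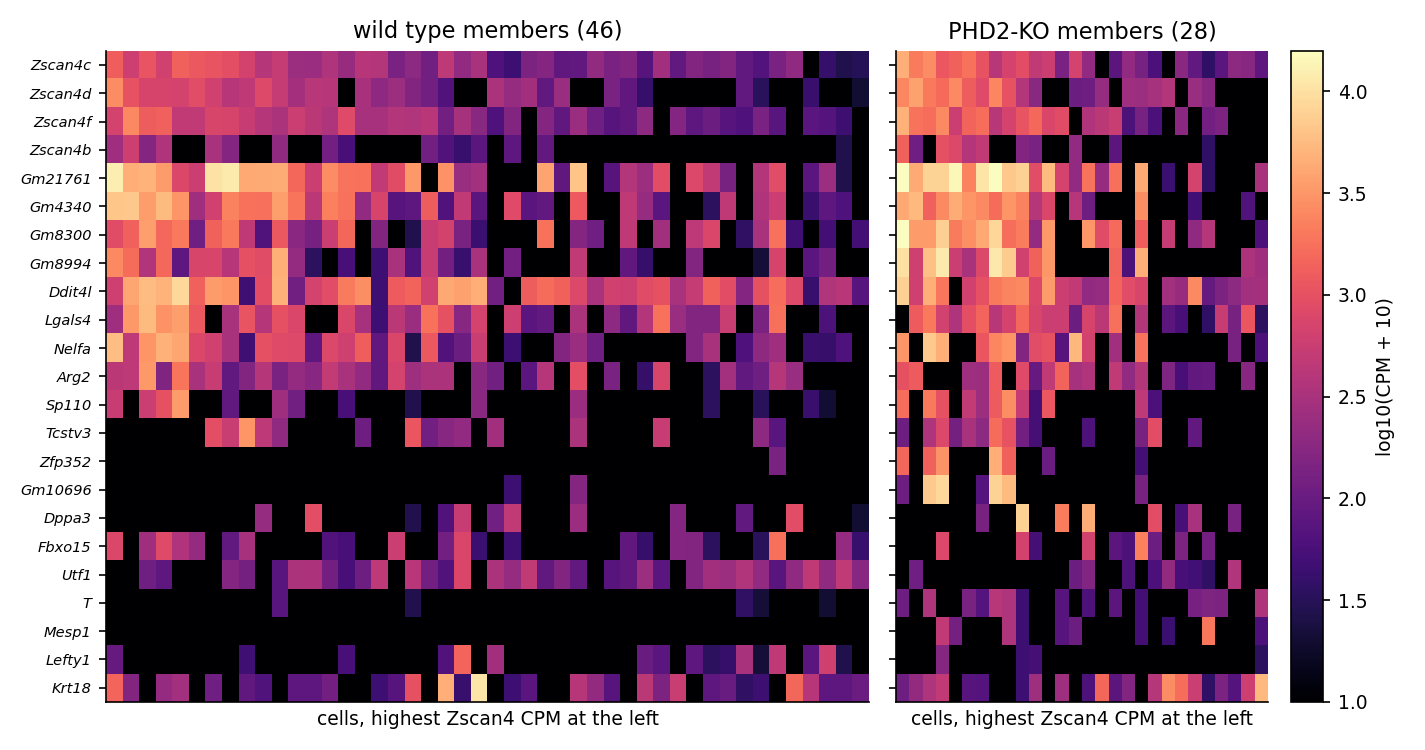
Level of 23 genes (rows) in each member (columns), as log10 of CPM plus 10, with cells ordered by Zscan4 CPM from the left in each library. Gm21761, Gm4340, Gm8300 and Ddit4l are bright in most Zscan4-rich cells, Zfp352 and Gm10696 in the same few PHD2-KO cells, and Dppa3, Mesp1 and Krt18 in scattered single cells.

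A few barcodes outside the rule also carried 2-cell transcripts. At least 10 UMIs of the 42 genes were present in 8 wild type barcodes (0.0871%, exact interval 0.0376 to 0.172) and 13 PHD2-KO barcodes (0.177%, 0.0941 to 0.303). Of these, 4 and 9 had no Zscan4 UMI at all. The highest was a PHD2-KO barcode of 16898 UMIs with 0 Zscan4 UMIs and 128 of the others, among them 62 Usp17la, 31 Tcstv3 and 22 Gm4340, beside 75 Ddit4l. It had 0 UMIs of Gm21761 and Gm8300. The Tcstv3 UMIs outside members fell in 22 PHD2-KO barcodes, 7 of them with 3 or more, whereas in wild type 10 UMIs fell in 10 barcodes.

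Pluripotency genes moved in both directions. Of 11 naive genes tested, which mark the earlier ground state, 6 (54.5%) were higher in members and 0 lower, with a median log2 fold of 0.53. Over all genes tested 11.8% were higher and 8.03% lower, and 3 of the 6 naive genes entered the test through members alone. Klf4 (log2 fold 1.60), Klf2 (1.19), Morc1 (1.65) and Dppa5a (0.53) were among the 6. For Klf4 this rests on 11 UMIs in wild type and 12 in PHD2-KO members, at most 2 per cell. Dppa3, which guards maternal methylation marks, had a median of 0 UMIs and highest values of 40 in wild type and 214 in PHD2-KO. It was present in only 12 of 46 and 8 of 28 members, and 1 PHD2-KO member held 58.3% of the UMIs there. Its log2 fold of 5.86 (SE 0.22), 7.48 without the wild type library and 4.19 without PHD2-KO, thus describes a minority of members. Fbxo15 (log2 fold 4.40, SE 0.22) was likewise present in 23 and 10 members, with 53.8% of the PHD2-KO UMIs in 1. Nanog was at 28.9 and 116 CPM against 34.7 and 45.1 and did not pass (edgeR adjusted p = 0.103), with 40.0% of its PHD2-KO UMIs in 1 member. Esrrb and Tfcp2l1 were too low to test.

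Core and formative genes leaned lower. Of 13 general pluripotency genes tested, 3 (23.1%) were higher and 4 (30.8%) lower, beside 11.8% and 8.03% of all genes (median log2 fold -0.45). Members alone brought 1 of the 3 higher genes into the test. The lower ones were Utf1 (218 and 46.4 CPM against 426 and 101), Sox2, L1td1 and Pou5f1, whose adjusted p of 0.048 by edgeR was close to the threshold at a log2 fold of -0.51. Zfp296, a zinc finger partner of reprogramming, rose from 4.40 and 5.46 to 50.3 and 75.9 CPM (log2 fold 3.57, SE 0.28), and Dppa2 and Nodal were the other higher ones. Of 10 formative genes 0 were higher and 4 (40%) lower (median -0.79): Zic2, Otx2, Pou3f1 and Utf1.

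Primitive streak genes were lower in sum in PHD2-KO members, whose list summed to 397 CPM against 909 in the other barcodes, but not in wild type, where it was low in both at 165 against 154 CPM. Of 11 tested, 6 (54.5%) were lower and 1 (9.09%), Nodal, higher, beside 8.03% and 11.8% of all genes, with a median log2 fold of -1.50. Sp5, a Wnt target, was at 15.7 against 8.76 CPM in wild type and 69.6 against 74.6 in PHD2-KO, and did not pass. T, the Brachyury gene of the streak and early mesoderm, had UMIs in 15 of 28 PHD2-KO members with a median of 1 and a highest of 14, at 75.9 CPM against 325 in the other barcodes. In wild type it was low in both, at 4.13 against 5.71 CPM. Fgf8, the streak's FGF ligand, was at 42.2 against 175 CPM in PHD2-KO and 22.3 against 39.1 in wild type. Eomes was at 14.8 against 50.6 CPM and Mixl1 at 14.8 against 75.4 in PHD2-KO. With the PHD2-KO library left out, the log2 fold of T was -0.47 and that of Fgf8 -0.81.

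Not every PHD2-KO member lacked streak or mesoderm transcripts. Mesp1, the early cardiac and nascent mesoderm factor, had 82 UMIs in 10 PHD2-KO members, of which 70 were in 1 cell that also had 11 Zscan4 UMIs and 36286 UMIs in all. Its level of 173 against 221 CPM did not pass (edgeR adjusted p = 0.269). Without that cell the ratio to the other barcodes was 0.124, where it was 0.783 with it.

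**Figure D5:**
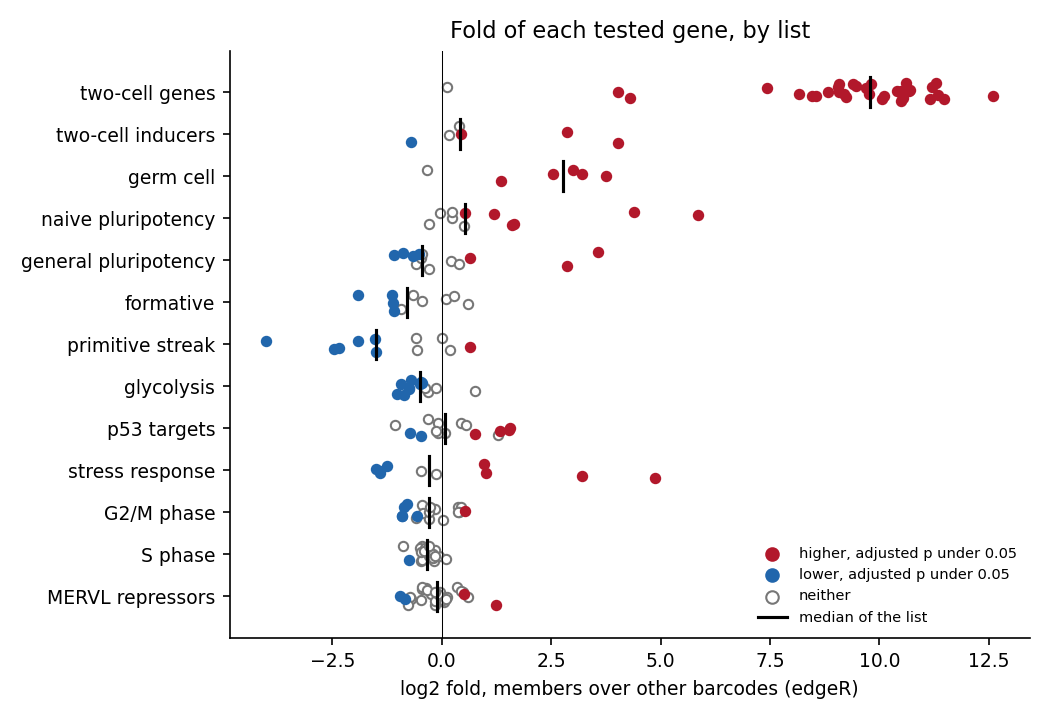
Log2 fold of members over other barcodes (edgeR) for each tested gene of 13 lists, with genes past the threshold in red (higher) or blue (lower), others open, and the list median as a bar. Most 2-cell genes stand far to the right around their median of 9.79, Eif1a lies at 0.13, and glycolysis and primitive streak genes lie mostly below 0.

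Some germ line genes were higher. Of 12 listed, 6 were tested, and of these 5 were higher and 0 lower. As 4 of the 5 entered the test through members alone, this count describes those genes and not the list. Tex19.1, a germ cell gene that also restrains retrotransposons, was at 62.7 and 94.9 CPM in members against 4.79 and 6.10 (log2 fold 3.75, SE 0.28) with UMIs in 25 and 18 members. Dazl, an RNA-binding protein of germ cells, was at 14.9 and 23.2 CPM against 1.84 and 1.83, and Taf7l, Stk31 and Sycp3 were also higher. Of 12 trophectoderm genes, the first embryonic lineage outside the embryo proper, 3 could be tested, and the keratins Krt8 and Krt18 were higher. They sat in few cells: 52.3% of wild type and 54.4% of PHD2-KO Krt18 UMIs were in 1 member each, and Cdx2 had 0 and 1 UMI. Without its top member, Krt8 in PHD2-KO was at 0.882 times the other barcodes. Of 10 feeder fibroblast markers 7 had no UMI in members, and the 2 that were tested, Thy1 and Col1a2, were both higher (median log2 fold 2.81), having entered the test through members alone. Thy1 had 9 UMIs in wild type and 4 in PHD2-KO members, and Col1a2 8 and 6. The list summed to 14.9 and 21.1 CPM against 2.77 and 10.9. Of the endoderm, neuroectoderm and haemato-endothelial lists, 1, 3 and 1 genes could be tested, and the endothelial factor Etv2 alone passed, lower (log2 fold -1.44).

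Most glycolysis genes were lower, while most cell cycle genes did not pass. Of 13 glycolysis genes, 9 (69.2%) were lower and 0 higher, with a median log2 fold of -0.49, where 8.03% of all genes were lower. Other abundant groups also leaned lower, with 5 of 10 housekeeping genes and 5 of 16 splicing genes lower and 0 higher in each. Ldha, lactate dehydrogenase, was at 569 against 688 CPM in wild type and 747 against 1505 in PHD2-KO (log2 fold -0.71, SE 0.12). Of 20 G2/M genes 5 (25%) were lower and 1 (5%) higher (median -0.28), and of 20 S phase genes 1 (5%) was lower and 0 higher (median -0.33). Of 96 ribosomal protein genes 19 (19.8%) were lower and 3 (3.13%) higher, with a small median log2 fold of -0.12. Of 14 HIF targets 3 were higher and 1 lower (21.4% and 7.14%, beside 11.8% and 8.03% of all genes). Members alone brought 2 of the 3 higher genes into the test, so this count describes those genes and not the list. P4ha2, a collagen prolyl hydroxylase, stood at 70.1 and 86.5 CPM against 5.01 and 6.27 (log2 fold 3.72, SE 0.27), beside Ddit4 and Ndrg1. Of 15 translation factors 4 (26.7%) were higher and 1 (6.67%) lower, with Eif4a2 at 0.73 and Eif5 at 0.66.

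Stress and p53 genes split by gene. Of 15 p53 targets 4 were higher and 2 lower (26.7% and 13.3%, beside 11.8% and 8.03% of all genes). Btg2, an antiproliferative gene, had a log2 fold of 1.53 (SE 0.18), Trp53inp1 1.57, Mdm2, the p53 ubiquitin ligase, 1.33 and Ccng1 0.76. The apoptosis genes Bbc3 (-0.73) and Bax (-0.46) were lower. Of 10 genes that respond to cell dissociation 4 were higher and 4 lower (40% each, beside 11.8% and 8.03% of all genes). Members alone brought 2 of the 4 higher genes into the test, so the higher count describes those genes and not the list. The immediate early genes Fos (-1.42), Fosb (-1.50), Egr1 (-1.40) and Junb (-1.24) were lower, and Jun (0.96), Atf3 (1.01) and the heat shock genes Hspa1a (4.86) and Hspa1b (3.22) higher. Hspa1a was at 18.2 and 27.4 CPM against 0.753 and 0.666, with 72.7% of its wild type UMIs in 1 member.

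Outside these lists the largest falls by the naming rule included Marcks, an actin-linked membrane protein (60.2 and 27.4 CPM against 112 and 131, log2 fold -1.42, SE 0.22), Car2, a carbonic anhydrase (-1.31), and the actin-binding Tagln (-1.12). Fst, the activin antagonist, was at 40.1 against 230 CPM in PHD2-KO but at 30.5 against 33.3 in wild type, so its log2 fold of -1.33 was -0.12 without the PHD2-KO library. Tagln was unevenly spread, at a median of 3 and a highest of 175 UMIs per wild type member. Falls were small beside the rises: 61 of the 691 genes called lower were at 0.5 or less of the other barcodes in both libraries.

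Between genotypes, members were compared without a test, as 1 library stands for each. Egln1 itself, the knocked-out gene, gave 19 UMIs in wild type members (15.7 CPM) and 3 in PHD2-KO members (6.33 CPM). In the other barcodes it was at 18.1 and 13.7 CPM, and since the altered part is not known these UMIs do not check the labels. Among 3382 genes with at least 50 UMIs in members, 546 (16.1%) were at least 1.5-fold higher in PHD2-KO members and 347 (10.3%) at least 1.5-fold lower. For the same genes in the far deeper other barcodes the shares were 5.65% and 2.07%. Member sums were 1211709 and 474092 UMIs, so counting error is larger there. With the 5 wild type members above 50000 UMIs left out the counts were 337 and 216, among a number of genes not given here.

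At the high end, Gm10696 had 116 UMIs in PHD2-KO members against 3 in wild type, a ratio of 98.8 (95% exact interval 33.0 to 486), and Zfp352 a ratio of 70.3 (18.6 to 595). Gm5117 had 84 UMIs against 0, with a lower limit of 56.9 for the ratio by the exact interval. The 5 PHD2-KO members with 3 or more Zfp352 UMIs held 80 of these 84. They also held 112 of the 116 Gm10696 UMIs and 53 of the 55 Zfp352 UMIs, so these 3 ratios mostly describe that subset. Mesp1 had 82 against 0, with a lower limit of 55.5 and 85.4% of its UMIs in 1 cell, and its ratio in the other barcodes was 539. Zfp51 had a ratio of 11.7 (6.20 to 24.03) with UMIs in 15 PHD2-KO members, where the other barcodes had 0.9999. Dusp4, a MAP kinase phosphatase, had 10.1 (6.59 to 16.1), where they had 1.47, with 40.2% of its PHD2-KO UMIs in 1 cell. Cflar (18.7) had 80.7% of its PHD2-KO UMIs in 1 cell.

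At the low end was Lefty1, a Nodal antagonist, with 144 UMIs in wild type members against 4 in PHD2-KO (ratio 0.0710, interval 0.0191 to 0.186). In the other barcodes the ratio was 1.03. Lefty1 had 41.7% of its wild type UMIs in 1 member. Trh, the gene of thyrotropin-releasing hormone, had 130 against 5 (ratio 0.0983, interval 0.0314 to 0.235), where the other barcodes had 1.73. For Trh 39.2% of the wild type UMIs were in 1 member. Utf1 (0.213) was also lower in the PHD2-KO library as a whole, at 0.238 in the other barcodes, and Pou3f1 (0.0838) likewise at 0.241.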

How the data were processed

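The authors deposited raw UMI counts per gene and barcode, 1 matrix for each library. Per the file headers, Cell Ranger 4.0.0 produced them, and mm10 and Seurat are named in the submitters' processing notes. The files held 9651 wild type and 7713 PHD2-KO barcodes, with 226179474 and 173470962 UMIs. No doublets were removed: Scrublet, run through scanpy 1.11.5, marked 0 at its automatic threshold.

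UMIs were summed over members and over the other barcodes of each library, and CPM are relative to each sum. Genes with at least 10 UMIs, observed or expected, in members were fitted with edgeR 4.0.16 (TMM, library as a term). Zscan4 genes were not tested, since the rule or reads shared between copies would decide them. Members and lists were chosen with earlier results of these data known. Intervals are exact (95%) and cover counting error only, and 3 UMIs correspond to 2.48 CPM in wild type and 6.33 CPM in PHD2-KO members.

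Genes named are 2-cell genes and inducers, list members, the 20 largest rises (20 UMIs or more in each library) and 20 largest falls (50 CPM or more), the 15 most confined to members, and the 8 highest and 8 lowest ratios between genotypes. Some genes that these rules take are not reported here. Others are described as chosen after their values were seen, or were needed for a list. Positions are from GENCODE M21, matched for 27645 of 27998 genes. Alternatives covered the UMI minimum, barcode limits, doublets, depth, scaling and the model.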

Additional observations from a re-analysis of the deposited data

Results flagged for a closer look

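For 8 of the genes reported here the members stood above the other barcodes in 1 library and below them in the other, with both intervals for counting error on opposite sides of 1. The difference between libraries was not tested. Lefty1 had a fold of 2.85 in wild type and 0.196 in PHD2-KO, and 60 of its 144 wild type UMIs were in 1 member. Trh had 1.51 and 0.0861, with 51 of its 130 wild type UMIs in 1 member. Tdgf1, the Nodal co-receptor, had 1.62 and 0.363. Cdkn1a, the p21 gene, had 1.44 and 0.651, Ifitm1 1.62 and 0.614, and Phlda2 1.46 and 0.850. In the opposite direction, Spp1 had 0.323 in wild type and 2.95 in PHD2-KO, with 14 of 21 UMIs in 1 PHD2-KO member, and Tdh 0.611 and 1.96, with 15 of 29 in 1.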

How the results depend on the processing

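The number of genes tested, 8607 in the main run, differs between alternatives. With at least 10 Zscan4 UMIs the share of members was 0.260% in wild type and 0.217% in PHD2-KO. Genes lower numbered 437 of 6594 tested, genotype differences higher 196, and the G2/M list's median turned to 0.00900. With barcodes thinned to 10000 UMIs the shares were 0.323% and 0.196%. Of 4684 genes then tested 544 were higher and 291 lower, and genotype differences were 93 higher and 117 lower. Genes lower numbered 315 of 8607 without TMM and 1038 of 20769 without a filter. DESeq2 called 582 higher and 235 lower. Without the library term (no replicate block) 383 were higher and 6 lower. Leaving out the members above 50000 UMIs, chosen after seeing the data, gave 337 and 216 genotype differences. For genotype differences the number of genes compared under each alternative is not given, so their counts cannot be read as shares. The causes of these shifts were not tested. Of the main 1013 higher genes, DESeq2 kept 57.5% and thinning 48.6%. Leaving out either library leaves 1 and no test, so only folds could be given. Those of the 20 largest rises and 20 largest falls by the naming rule kept their sign. The genes flagged for a closer look above did not, as their folds in the 2 libraries lay on opposite sides of 1. Depth limits what single members show: 3 Zscan4 UMIs are a small count, and 12 members sat at that value.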
